A study of Mus musculus with 7 samples.

Results

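Genes of the response to DNA double-strand breaks were compared between whole testes of Phf13 knockout mice and of wild type mice. The set held 33 listed genes in 4 roles: 14 for sensing and signalling, 8 for homologous recombination, 6 for end joining and 5 of the Fanconi anaemia pathway. Of these, 30 were measured among 18194 genes tested on the arrays, each through its brightest probe set by mean log2 signal (7 arrays) among probe sets with 1 gene symbol. No probe set was named for Trp53, Rbbp8 or Dclre1c in the annotation table used here, so those genes were not analysed here. There were 3 arrays of Phf13 knockout testis and 4 of wild type testis, and all mice were 15 to 20 weeks old. The design of the knockout allele, the strain and whether arrays came from separate animals are not given in the sources used here.

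A double-strand break is first bound by the MRN complex, which recruits the kinase ATM. ATM and the related kinase ATR then phosphorylate the histone variant H2AX and the checkpoint kinases, and ubiquitin ligases mark the surrounding chromatin for repair. Homologous recombination copies an intact DNA strand, end joining ligates the ends directly, and the Fanconi proteins handle crosslinked DNA and stalled forks. In testis homologous recombination repairs the breaks that spermatocytes make for meiotic recombination. H2AX, MDC1 and RNF8 also act on the sex chromosomes and on later chromatin remodelling. Phf13, also called Spoc1, encodes a PHD finger protein that reads histone H3 methylated at lysine 4 and has itself been linked to the DNA damage response and to the upkeep of spermatogonial stem cells.

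Both genes that fell, Fanca and Fancd2, belong to the Fanconi group. Promoters are shown for Fanca and for Fancg, which had the lowest fold change of the 30 measured genes but did not pass. No promoter sequence was available for Fancd2. Both are the 250 bases before the annotated start, on the minus strand of GRCm38.p6, from RefSeq. Fanca lies at chr8:123318577-123318826 and Fancg at chr4:43010302-43010551. Capitals mark a CCAAT box or a match to an E2F-type site (TTTCCCGC, TTTCGCGC, TTTGCCGC or TTTGGCGC), searched on both strands.
Fanca: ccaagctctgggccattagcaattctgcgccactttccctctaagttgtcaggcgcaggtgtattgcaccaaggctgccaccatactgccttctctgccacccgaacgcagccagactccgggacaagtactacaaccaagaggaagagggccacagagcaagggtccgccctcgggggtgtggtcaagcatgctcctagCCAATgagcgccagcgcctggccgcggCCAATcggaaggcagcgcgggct
Fancg: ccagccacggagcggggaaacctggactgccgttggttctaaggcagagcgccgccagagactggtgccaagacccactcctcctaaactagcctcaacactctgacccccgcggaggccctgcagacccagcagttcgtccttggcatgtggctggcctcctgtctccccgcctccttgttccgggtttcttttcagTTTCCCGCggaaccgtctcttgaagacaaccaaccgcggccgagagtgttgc
Fanca held 2 CCAAT boxes, starting 50 and 23 bases before the start, and no E2F-type match. Fancg held 1 E2F-type match, starting 52 bases before the start, and no CCAAT box. Of the Fanconi promoters not shown, Fancl held neither, and Fancc held a CCAAT box starting 242 bases before the start. The promoter table held 26 of the 33 listed genes. An E2F-type match was found in 6 of the 26 (23.1%: Brca2, Chek2, Fancg, Mdc1, Topbp1 and Xrcc6), against 1.91% of 27025 promoters in the table. A CCAAT box was found in 12 of the 26 (46.2%), against 34.5% of all promoters, and the NRF1 site in 3 of the 26 (11.5%), against 3.86%. The cell cycle element CHR (TTTGAA) was found in 1 of the 26 (3.85%), the Rnf8 promoter, against 16.3% of all promoters. The median number of CG dinucleotides in the 250 bases was 16.5 for the 26 genes and 6.0 for all promoters. These matches describe letters in the window and were not set against the fold changes.

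The targeted gene was low in each knockout array. The Phf13 probe set 1455175_at had log2 signals of 6.04, 5.83 and 5.71 in knockout testis, against 8.66, 8.64, 8.73 and 8.54 in wild type testis, which gives −2.78 on the log2 scale (SE 0.09, limma adjusted p = 8.76e-06). Where its probes lie relative to the deletion was not analysed here. Array medians lay between 5.01 and 5.08 on the log2 scale. Known testis genes gave strong signals: Prm1, which encodes protamine of sperm chromatin, averaged 13.88 in knockout and 13.90 in wild type testis. Somatic markers differed between the genotypes. Of 13 measured Sertoli cell markers 12 rose and 0 fell (summed linear signal 16128 to 17912 in knockout, against 9517 to 12701 in wild type), and of 8 Leydig cell markers 5 rose and 0 fell (8370 to 10417, against 4394 to 6264). Of 10 macrophage markers 6 rose and 0 fell (1310 to 2096, against 921 to 1196), and of 7 peritubular markers 3 rose and 0 fell (2232 to 2511, against 1384 to 1663). Of 14 spermatid markers 0 rose and 4 fell (77404 to 78956, against 79950 to 84997). Of 14 spermatocyte markers 0 rose and 1 fell (25953 to 28648, against 27916 to 28494), and of 12 spermatogonial markers 4 rose and 0 fell (1472 to 1716, against 1179 to 1433). Of 8 lymphocyte markers 0 rose and 0 fell (243 to 249, against 249 to 261), with 1 at an unadjusted limma p under 0.05, and array signals have no true 0. In whole tissue, fewer cells of a type and less RNA per cell cannot be told apart, and the part that these shifts have in the values below was not tested.

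Of the 30 measured genes, 0 rose, 2 fell and 28 did not pass, where passing means a limma p adjusted over all tested genes under 0.05. The 2 that fell were Fancd2 and Fanca, both of the Fanconi group. With arrays blocked by the number in their titles 0 of the 30 passed (adjusted p = 0.0585 for Fancd2 and 0.0815 for Fanca). Under that block 2317 of all 18194 genes passed, 1402 higher and 915 lower (5.03%). Without the block 16.1% of all genes passed, 9.07% higher and 7.05% lower. The 2 of 30 (6.67%) that fell are near the latter share. Of the 30, 23 had a negative log2 fold change (76.7%, against 59.9% of all genes), with a median of −0.09, against −0.045 for all genes. With other scaling the number with a negative value was 25 (quantile normalization) or 26 (arrays centred on their medians). The median of all genes was lower there too, at −0.0524 and −0.0758, against −0.107 and −0.119 for the 30 genes. An unadjusted p under 0.05 was reached by 7 of the 30 (23.3%), of which 6 were lower and 1 was higher, against 33.8% of all genes.

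The 95% intervals of the 30 log2 fold changes, each taken alone, lay between −0.56 and 0.34, which is at most 1.47-fold lower or 1.27-fold higher in knockout. Standard errors ran from 0.06 to 0.12 on the log2 scale. For 5 of the 30 genes the arrays of the 2 genotypes did not overlap, a smaller share than the 28% of all genes. The 5 were Fanca, Fancd2, Fancg, Brca2 and H2ax, and H2ax was the only one of them that was higher in knockout.

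**Figure D1:**
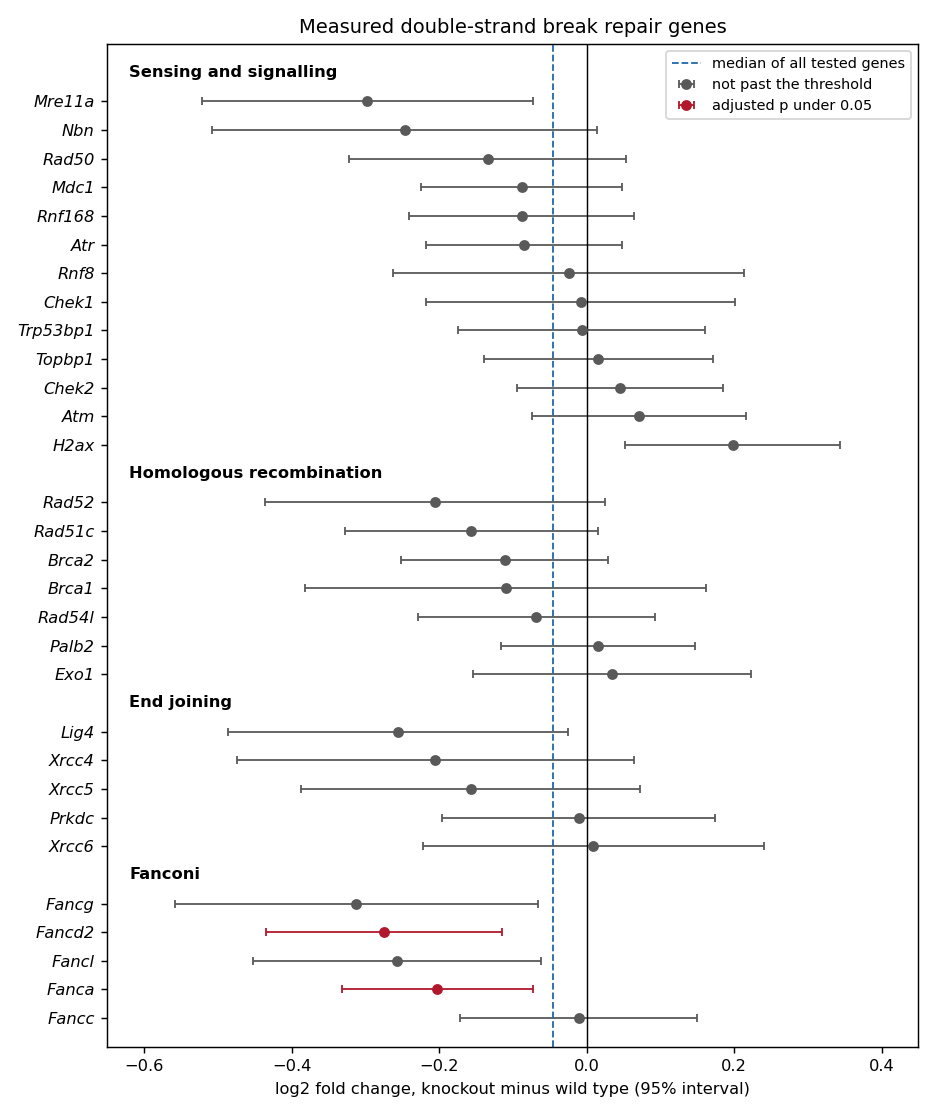
Log2 fold change (knockout minus wild type, x axis) of each measured gene by role, with its 95% interval from limma; red points are past the adjusted p of 0.05 in the fit without a block and the dashed line is the median of all tested genes. Fancd2 and Fanca are the 2 red points, and every interval lies between −0.56 and 0.34.

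All 5 Fanconi pathway genes had negative log2 fold changes (median −0.26), against 59.9% of all genes (median −0.045). Of the 5, 2 (40%) fell, against 7.05% of all genes. An unadjusted limma p under 0.05 was reached by 4 (80%), against 33.8% of all genes. Fancd2 encodes the protein that the Fanconi core complex ubiquitinates at damaged DNA, and its knockout level was 1.21-fold lower. Its probe set 1439091_at had log2 signals of 7.75, 7.90 and 7.66 in knockout, against 8.08, 8.02, 8.06 and 8.02 in wild type. All knockout arrays lay below all wild type arrays, and knockout 2 lay closest to them. Its log2 fold change was −0.28, with an SE of 0.07 and an adjusted p of 0.0342 (limma).

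Fanca, a subunit of the core complex whose promoter is shown above, was 1.15-fold lower in knockout. Its probe set 1418856_a_at had log2 signals of 6.56, 6.67 and 6.60 in knockout, against 6.80, 6.84, 6.82 and 6.79 in wild type. The groups did not overlap, and the log2 fold change was −0.20 (SE 0.06, adjusted p = 0.0457). Both calls were near the threshold. Array titles start with a number, and arrays that share its first 4 digits make 3 sets, each holding both genotypes. These title-number groups are the block named above, under which neither gene passed. Within the 3 title-number groups the difference was −0.33, −0.14 and −0.36 for Fancd2 and −0.24, −0.16 and −0.19 for Fanca. With 1 array left out, each gene passed in 1 of 7 runs, the one without knockout 2, and neither passed when knockout 3 and wild type 4 were both left out.

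Fancg and Fancl did not pass. Fancg, another core complex subunit, had log2 signals of 7.81, 7.68 and 7.34 in knockout, against 7.95, 7.96, 7.95 and 7.83 in wild type, which did not overlap. Its log2 fold change was −0.31 (SE 0.11, adjusted p = 0.0822), and −0.18 without knockout 3. A second Fancg probe set, 1420960_at, averaged 7.06 in knockout and 7.42 in wild type and passed when all 34958 probe sets with 1 symbol were tested (log2 fold change −0.36, SE 0.09, adjusted p = 0.0360). Fancl, the ubiquitin ligase subunit of the core complex, had signals of 7.73, 7.91 and 7.79 in knockout, against 7.91, 8.20, 8.02 and 8.14 in wild type. Knockout 2 equalled the lowest wild type array, and the log2 fold change was −0.26 (SE 0.09, adjusted p = 0.0742).

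Fancc, also of the core complex, had a log2 fold change of −0.01 (95% interval −0.17 to 0.15). Its signals were 6.86, 6.84 and 6.84 in knockout, against 6.99, 6.89, 6.77 and 6.78 in wild type, and the knockout arrays lay inside the wild type range. Another Fancc probe set, 1450861_at, gave −0.17 (SE 0.08, adjusted p = 0.179 over all probe sets). Another Fancd2 probe set, 1438339_at, gave −0.23 (SE 0.08, adjusted p = 0.104). Its dim probe sets 1430916_at and 1442092_at gave −0.053 (SE 0.09) and −0.065 (SE 0.08), with signals below the array medians. The second Fanca probe set, 1452513_a_at, gave −0.15 (SE 0.11, adjusted p = 0.368).

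**Figure D2:**
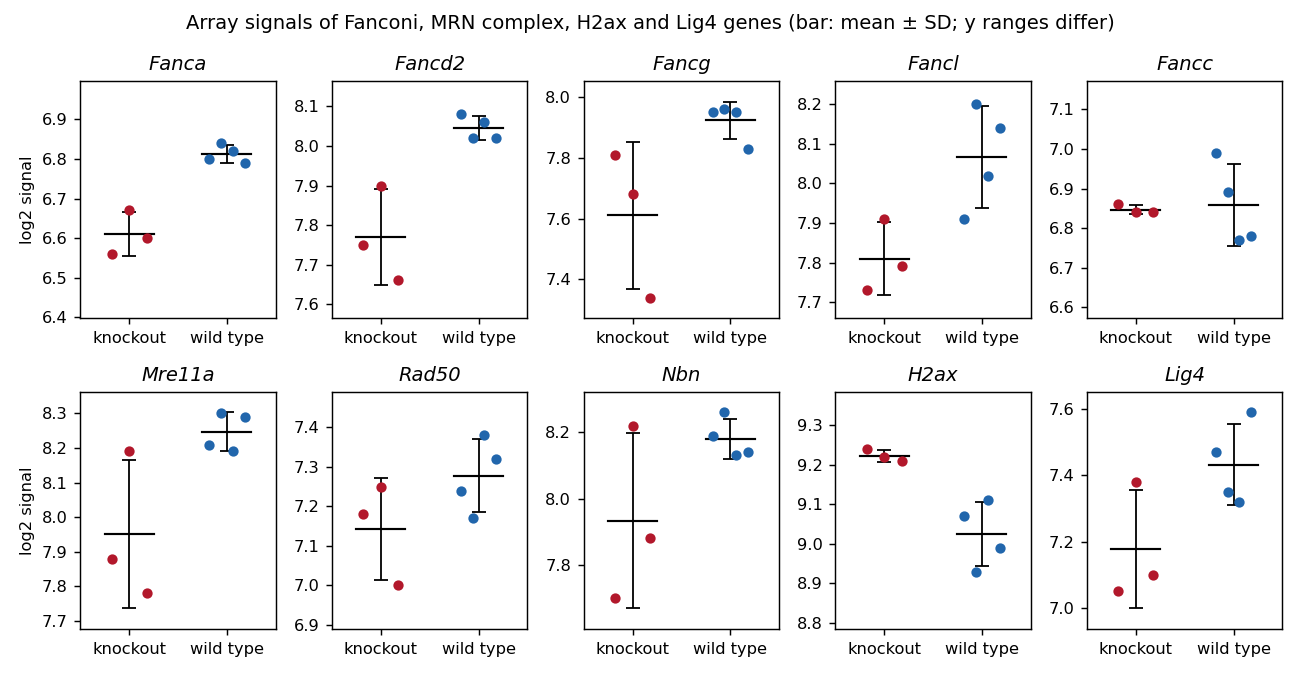
Log2 signal (y axis, with a range of its own in each panel) of 10 genes in knockout (red, n = 3) and wild type (blue, n = 4) arrays; lines and bars are the mean ± SD. For Fanca, Fancd2 and Fancg the knockout arrays lie below the wild type arrays, for H2ax above them, and for Mre11a, Nbn and Lig4 knockout 2, the middle red point, lies at or near the wild type arrays.

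Among the 13 measured sensing and signalling genes 0 rose and 0 fell, and 2 (15.4%) reached an unadjusted limma p under 0.05, against 33.8% of all genes. The median log2 fold change was −0.02 (range −0.30 to 0.20). H2ax, which encodes the histone variant phosphorylated around breaks, had the highest value. Its signals were 9.24, 9.22 and 9.21 in knockout, against 9.07, 8.93, 9.11 and 8.99 in wild type. All knockout arrays were above all wild type arrays, and the log2 difference was 0.20 (SE 0.06, adjusted p = 0.0680). The difference was 0.17, 0.20 and 0.22 within the title-number groups. When only the 12131 brightest genes were tested the adjusted p of H2ax was 0.0476, and 0.0390 over the 9099 brightest. It was 0.111 with the title-number groups as block, and the highest with 1 array left out was 0.150. The probe set for H2ax was its only one in the table, and the array measures its transcript, not the phosphorylated protein.

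The 3 genes of the MRN complex, Mre11a, Rad50 and Nbn, had lower means in knockout, and none passed. Mre11a, the nuclease subunit, had log2 signals of 7.88, 8.19 and 7.78 in knockout, against 8.21, 8.30, 8.19 and 8.29 in wild type. Knockout 1 and 3 lay below the wild type range and knockout 2 equalled its lowest array. The log2 fold change was −0.30 (SE 0.10, adjusted p = 0.0732). With 1 array left out it ran from −0.42 (without knockout 2, adjusted p = 0.0235) to −0.21 (without knockout 3, adjusted p = 0.218), and it passed in 1 of 7 runs. A second probe set gave −0.22 (SE 0.11).

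Nbn, which links the complex to ATM, showed the same split between arrays. Its signals were 7.70, 8.22 and 7.88 in knockout, against 8.19, 8.26, 8.13 and 8.14 in wild type, with knockout 2 inside the wild type range. The log2 fold change was −0.25 (SE 0.11, adjusted p = 0.169), and Nbn passed in 1 of 7 runs with 1 array left out. These ran from −0.39 (without knockout 2, adjusted p = 0.0283) to −0.13 (without knockout 1, adjusted p = 0.430). Rad50, the ATPase subunit, had signals of 7.18, 7.25 and 7.0 in knockout, against 7.24, 7.17, 7.38 and 7.32 in wild type. The Rad50 groups overlapped, and the log2 fold change was −0.13 (SE 0.08, adjusted p = 0.284).

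None of the kinases that signal from breaks passed. Atm, the kinase recruited by MRN, averaged 6.09 ± 0.09 in knockout and 6.02 ± 0.03 in wild type (SD, n = 3 and n = 4), a log2 fold change of 0.07 (95% interval −0.07 to 0.22). Atr, which responds to single-stranded DNA, averaged 10.51 ± 0.05 in knockout and 10.60 ± 0.04 in wild type (interval of the difference −0.22 to 0.05). Chek1, the checkpoint kinase downstream of ATR, had a log2 fold change of −0.01 (interval −0.22 to 0.20). Chek2, downstream of ATM, had one of 0.04 (interval −0.09 to 0.18), and Topbp1, an activator of ATR, one of 0.02 (interval −0.14 to 0.17). The Chek2 signals of 4.38 to 4.53 lay below the array medians and may not be above background. The sign of Chek1, and of Topbp1 with arrays centred on their medians, depended on the setting.

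Mediators at the break also did not pass. Mdc1, which binds phosphorylated H2AX, averaged 8.85 ± 0.03 in knockout and 8.94 ± 0.06 in wild type (log2 fold change −0.09, interval −0.23 to 0.05). Rnf8, the first ubiquitin ligase at the break, averaged 7.14 ± 0.24 in knockout and 7.17 ± 0.02 in wild type. Its knockout signals of 6.87, 7.33 and 7.23 lay on both sides of wild type signals of 7.15, 7.16, 7.19 and 7.17, so the spread was in the knockout arrays. Rnf168, which extends the ubiquitin mark, had a log2 fold change of −0.09 (interval −0.24 to 0.06). Trp53bp1, whose protein steers breaks toward end joining, had a log2 fold change of −0.01 (interval −0.17 to 0.16) in its brightest probe set. A dim Trp53bp1 probe set, 1442316_x_at, averaged 4.19 in knockout and 3.29 in wild type (0.90, SE 0.27, adjusted p = 0.0637 over all probe sets), both below the array medians, so the probe sets of this gene disagreed.

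Of the 7 measured genes of homologous recombination 0 rose and 0 fell, and 0 reached an unadjusted limma p under 0.05, against 33.8% of all genes. Their median log2 fold change was −0.11 (range −0.21 to 0.03). Brca2, which loads the strand exchange recombinase, had signals of 8.87, 8.88 and 8.73 in knockout, against 8.96, 8.93, 8.95 and 8.91 in wild type. The groups did not overlap, yet the difference was small (log2 fold change −0.11, SE 0.06, adjusted p = 0.240). Brca1, an early regulator of this route, had signals of 7.05, 6.80 and 6.58 in knockout, against 7.09, 6.94, 6.89 and 6.76 in wild type. Both genotypes spread widely and overlapped (log2 fold change −0.11, SE 0.12), and without knockout 3 the value was 0.005. Palb2, which joins BRCA1 to BRCA2, averaged 6.36 ± 0.05 in knockout and 6.34 ± 0.03 in wild type.

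Rad51c, a recombinase paralogue needed for meiotic recombination, had signals of 8.12, 8.37 and 8.18 in knockout, against 8.31, 8.37, 8.43 and 8.41 in wild type. Knockout 2 was again inside the wild type range (log2 fold change −0.16, SE 0.08, adjusted p = 0.181), and a second probe set gave −0.19 (SE 0.09). Rad52, a DNA annealing protein gene, averaged 4.97 ± 0.19 in knockout and 5.17 ± 0.11 in wild type, near the array medians (log2 fold change −0.21, SE 0.10, adjusted p = 0.191). Rad54l, a DNA translocase gene, had a log2 fold change of −0.07 (interval −0.23 to 0.09), and Exo1, a resection nuclease gene with a further role in meiotic crossovers, one of 0.03 (interval −0.15 to 0.22).

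Of the 5 measured end joining genes 0 rose and 0 fell, and 1 (20%) reached an unadjusted limma p under 0.05, against 33.8% of all genes. Their median log2 fold change was −0.16 (range −0.26 to 0.01). Lig4, the ligase that seals the ends, had signals of 7.05, 7.38 and 7.10 in knockout, against 7.47, 7.35, 7.32 and 7.59 in wild type. Knockout 1 and 3 were below the wild type range and knockout 2 within it (log2 fold change −0.26, SE 0.10, adjusted p = 0.117). With 1 array left out Lig4 ran from −0.36 (without knockout 2, adjusted p = 0.0454) to −0.19 (without knockout 1, adjusted p = 0.293), and it passed in 1 of 7 runs. Xrcc4, the partner of LIG4, had signals of 8.36, 8.33 and 8.33 in knockout, against 8.30, 8.40, 8.70 and 8.78 in wild type, so its spread was in the wild type arrays (log2 fold change −0.20, SE 0.12). A second Xrcc4 probe set gave −0.30 (SE 0.11, adjusted p = 0.110 over all probe sets).

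The Ku subunit genes, whose proteins bind DNA ends, did not pass. Xrcc5 had signals of 6.62, 7.02 and 7.0 in knockout, against 7.03, 7.01, 7.01 and 7.10 in wild type, with knockout 1 alone well below the rest. Its log2 fold change was −0.16 (SE 0.10), and −0.03 without knockout 1. Xrcc6 had signals of 6.84, 7.21 and 7.18 in knockout, against 7.02, 6.98, 7.08 and 7.19 in wild type (log2 fold change 0.01, interval −0.22 to 0.24), and its sign turned with either other scaling. Prkdc, the DNA-dependent protein kinase gene, had a log2 fold change of −0.01 (interval −0.20 to 0.17).

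The knockout arrays were not alike in these genes. Knockout 1 lay below the wild type range for 18 of the 30 genes, knockout 2 for 8 and knockout 3 for 14, against 34.3%, 32.1% and 36.1% of all genes. Knockout 2 was the highest of the knockout arrays for 16 of the 30, where it was highest for 33.1% of all genes, and knockout 1 was the lowest for 15 of the 30, against 34.7%. The median difference from the wild type mean over the 30 genes was −0.12 for knockout 1, −0.03 for knockout 2 and −0.07 for knockout 3, against −0.03, −0.03 and −0.04 over all genes. Within the title-number groups the median log2 fold change of the 30 genes was −0.12 in the group of knockout 1 and wild type 1, −0.025 in that of knockout 2, wild type 2 and wild type 3, and −0.13 in that of knockout 3 and wild type 4, against −0.03 over all genes in each. These counts are descriptions, since genes of an array share one RNA sample.

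**Figure D3:**
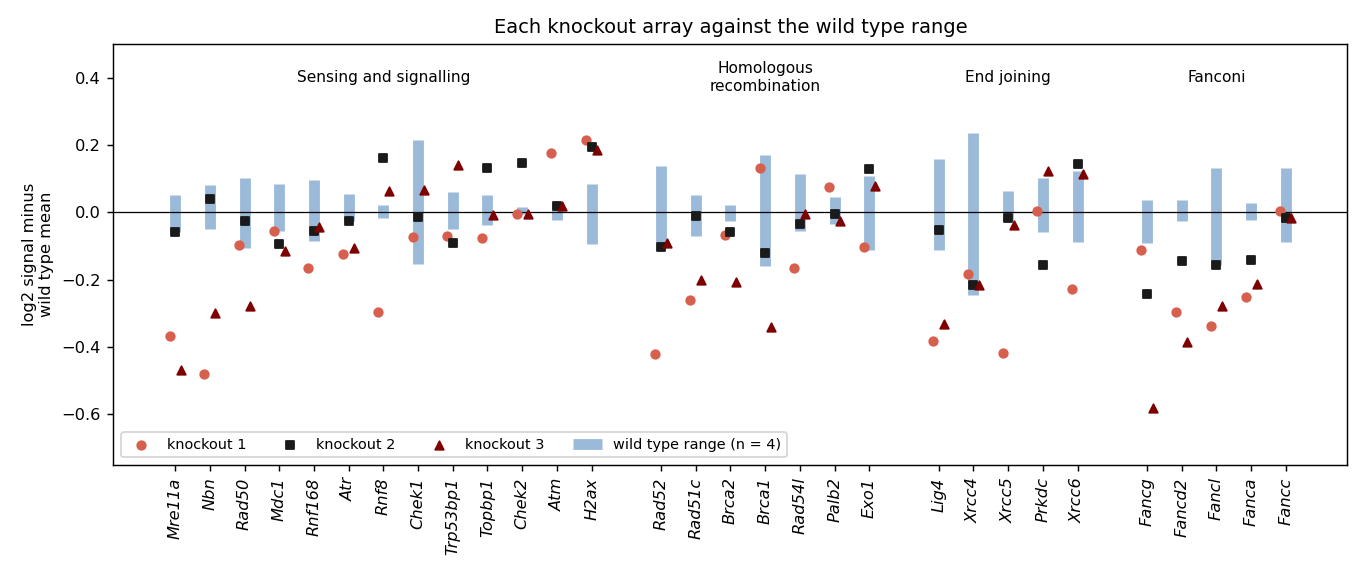
Log2 signal of each knockout array minus the wild type mean (y axis) for the 30 genes by role; blue bars span the 4 wild type arrays. Knockout 2 (squares) lies within the wild type range for 16 genes, while knockout 1 (circles) lies below it for 18 and knockout 3 (triangles) for 14.

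A further list held other genes of the same pathways. Of its 78 genes 74 were measured, of which 0 rose, 12 fell and 62 stayed short of the threshold. That is 16.2% lower, against 7.05% of all genes, with a median log2 fold change of −0.12, against −0.045. Of the 13 other Fanconi genes 5 fell, of 13 end joining and end processing genes 3, of 22 recombination genes 3 and of 26 sensing genes 1. With a block for title number 6 of the 74 were past the threshold and lower (Mus81, Tdp1, Xrcc1, Faap20, Faap100 and Cenps) and 1 was higher, Brcc3, a deubiquitinase gene. Of all genes 5.03% fell with that block. The 1 gene that fell without knockout 1, without knockout 3, without wild type 1 or without wild type 2 was Faap20, and 3 fell without wild type 3 and 6 without wild type 4.

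Faap20, which encodes a ubiquitin-binding partner of the core complex, had the lowest fold change of them. Its signals were 5.15, 5.25 and 5.37 in knockout, against 6.36, 6.51, 6.50 and 6.28 in wild type, 2.23-fold lower (log2 fold change −1.16, SE 0.08, adjusted p = 0.00155). It passed in 7 of 7 runs with 1 array left out. Faap20, Cenps and Mad2l2 lie within 10 Mb of Phf13 on chromosome 4, where 15.7% of 166 genes fell, against 6.97% of other genes, and 9 of the 12 falling genes lie elsewhere. Of the 30 measured genes none lies within that distance.

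Further Fanconi genes fell by less. Faap100, a core complex partner, had signals of 6.94, 7.0 and 6.66 in knockout, against 7.35, 7.23, 7.26 and 7.14 in wild type (log2 fold change −0.38, SE 0.09, adjusted p = 0.0318). Its dimmer probe sets did not share this fall: 1453368_at gave −0.03 (SE 0.06) and 1444132_at 0.01 (SE 0.06), both near the array medians in signal. For Cenps, whose product binds DNA with FANCM, the difference was −0.40 (SE 0.10, adjusted p = 0.0340). Wdr48, an activator of the enzyme that removes ubiquitin from FANCD2, had one of −0.24 (SE 0.06, adjusted p = 0.0396). Fanci, the partner of FANCD2, was lower by a log2 difference of −0.21 (SE 0.06, limma adjusted p = 0.0459). Not all of this list was lower: of the 13 genes 11 had a negative and 2 a positive log2 fold change. The highest was Fance, at 0.15 (SE 0.06, limma adjusted p = 0.116). All its knockout arrays lay above all wild type arrays.

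In recombination, Mus81, a nuclease gene for branched DNA, had signals of 7.16, 7.26 and 7.37 in knockout, against 7.62, 7.71, 7.50 and 7.62 in wild type (log2 fold change −0.35, SE 0.08, adjusted p = 0.0222). Slx4, the scaffold for such nucleases, fell by 0.25 (SE 0.07), and Bard1, the partner of BRCA1, fell by 0.30 (SE 0.07, adjusted p = 0.0290). In end processing, Tdp1, which frees DNA ends of trapped topoisomerase, fell by 0.32 (SE 0.08), the single-strand break scaffold gene Xrcc1 by 0.30 (SE 0.07, adjusted p = 0.0269) and Mad2l2, a shieldin subunit gene, by 0.27 (SE 0.07). Rpa1, which coats single-stranded DNA, fell by 0.25 (SE 0.06, adjusted p = 0.0366). Of 25 measured genes of DNA replication and division, many of which dividing cells share with repair, 0 rose and 0 fell, and 4 (16%) had an unadjusted limma p under 0.05, against 33.8% of all genes. The median log2 fold change of that list was −0.03.

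**Figure D4:**
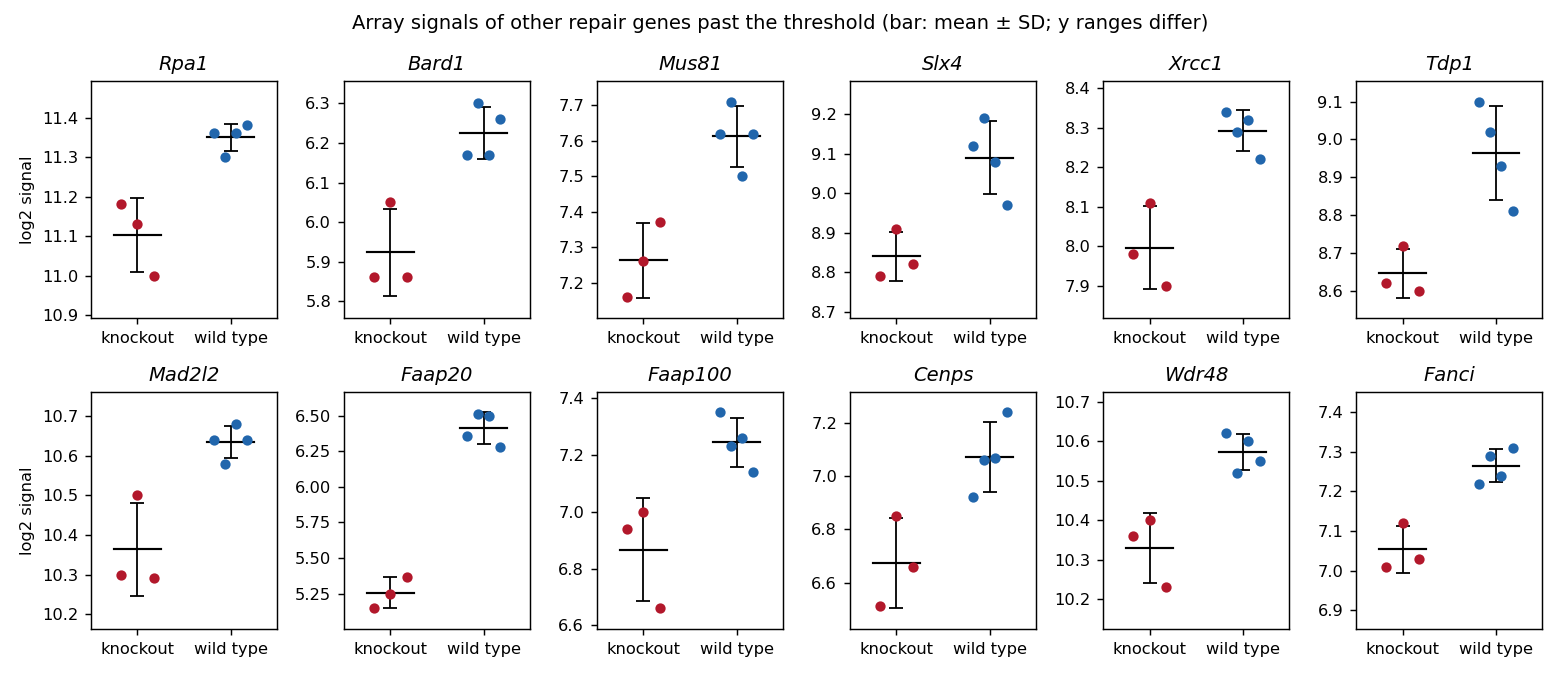
Log2 signal (y axis, with a range of its own in each panel) of the 12 other repair genes past the threshold in knockout (red, n = 3) and wild type (blue, n = 4) arrays; lines and bars are the mean ± SD. In all 12 panels the knockout arrays lie below the wild type arrays, with the widest gap for Faap20.

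**Figure D5:**
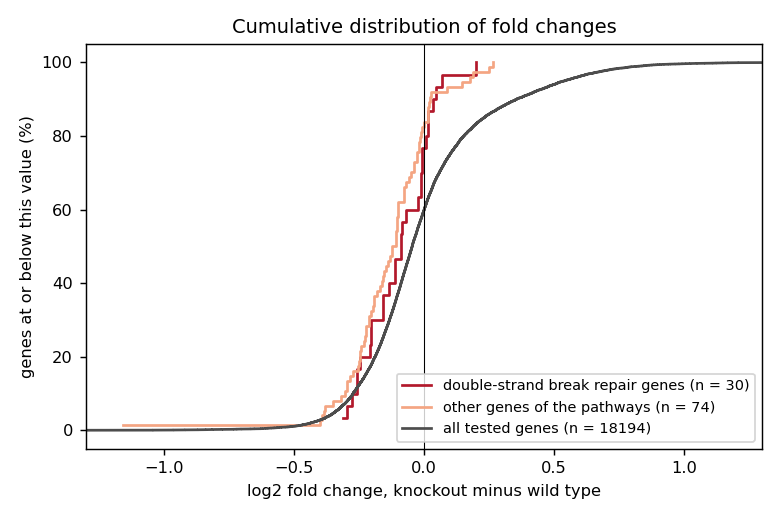
Cumulative share of genes (y axis, %) by log2 fold change, knockout minus wild type (x axis), for the 30 double-strand break repair genes, 74 other genes of the pathways and all 18194 tested genes, of which 17 lie beyond the axis. The 30 genes lie between −0.31 and 0.20, and their median of −0.09 is left of the −0.045 of all genes.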

How the data were processed

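Whole testis RNA (Trizol, 2 ug) was labelled with biotin and hybridised to Affymetrix arrays, per the labels' protocols. The authors deposited log2 signals for 45101 probe sets on 7 arrays. The submitters' processing notes list Affymetrix Expression Console 1.4.1; summarisation and normalization are not given in the sources used here. The log2 scale was read from the range of 1.59 to 13.92, and no normalization was added. Arrays carry no read depth, and their number limits the precision. Groups came from the titles. No label ties an array to an animal of its own. The p-values therefore reflect only how these arrays varied, which may be technical variation.

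Gene names came from the platform's annotation table: 34958 probe sets had 1 symbol, 932 several and 9211 none. One probe set per gene was fitted with limma 3.58.1 (R 4.3.3, two-sided, Benjamini-Hochberg over 18194 genes, threshold 0.05), and the fit was tested on simulated data. Replicate numbers did not pair the arrays (correlations of deviations 0.182, 0.103 and −0.143). Knockout and wild type arrays of 1 title-number group had 0.103 to 0.319, against at most 0.0227 for other such pairs. Wild type 2 and 3, also of 1 title-number group, had −0.530, the lowest of the 6 wild type pairs. Deviations were taken from the mean of each genotype, which pushes pairs within a genotype below 0. The wild type pairs therefore cannot be compared with the mixed pairs. What the title number marks is not stated, so the block is given as an alternative. Genes named were the listed genes, Phf13 and, per role, up to 4 other pathway genes past the threshold with the smallest p. Fanci, Fance, Brcc3 and the probe sets described besides the representative ones were named after their values were seen. Members, lists and tests were chosen with earlier results of these data known. Alternatives were other scaling, filters, probe set rules, variance models, blocks and left-out arrays.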

Additional observations from a re-analysis of the deposited data

Results flagged for a closer look

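Of 43 genes checked, 3 had a wild type array set apart relative to the range of the 4 wild type arrays. Chance gives about 1 in 20, so 3 of 43 is near that share. Because the gap is judged against the range, it can be small in size. Fancg was 7.83 in wild type 4, against 7.95 to 7.96 in the other wild type arrays, which lies nearer to the highest knockout array (7.81). Atr was 10.65 in wild type 3, against 10.57 to 10.58. Chek2 was 4.4 in wild type 4, against 4.38 in the others.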

How the results depend on the processing

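Of the 30 genes, 2 fell in the main setting. The count that fell was 5 of the 26 tested over the 9099 brightest genes (19.2%, against 19.1% of all genes there). It was 1 (3.33%) with all probe sets tested, against 5.56% of all genes, and 1 (3.33%) with trend and robust variance, against 8.92%. The count was 0 with a block for title number and 0 with the replicate block, which leaves out wild type 4. It was also 0 without knockout 3 and wild type 4 (chosen after the data were seen). With 1 array left out it was 0 to 5. The 5 (16.7%) fell without knockout 2, where 6.65% of all genes fell. The count that rose was 1 of 28 (H2ax) over the 12131 brightest genes, of which 1811 rose. It was 1 of 26 over the 9099 brightest, of which 1529 rose. With the mean of all probe sets 2 fell (6.67%, against 6.75% of all genes), but these were Mre11a and Fancg. Of the other pathway genes 12 fell in the main setting. The count was 19 over the 12131 brightest genes and 16 over the 9099 brightest. It was 4 with the replicate block and 6 with the title-number block (where 1 rose). Without knockout 3 and wild type 4 it was 1, and with 1 array left out 1 to 15. The share of all genes that fell moved too: 7.05% in the main setting, 13.5% over the 12131 brightest and 19.1% over the 9099 brightest. This share was 3.63% with the replicate block, 5.03% with the title-number block and 0.434% to 6.65% with 1 array left out. Over all genes 2934 passed, 175 to 2574 with 1 array left out and 4 without knockout 3 and wild type 4. The Phf13 call held in every setting run. Of 14 other named calls, 13 were lost without knockout 1, knockout 3, wild type 1 or wild type 2, 11 without wild type 3, 8 without wild type 4 and 2 without knockout 2; the fits have fewer arrays, and other causes were not tested.

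Signs turned only for genes that did not pass. Log2 fold changes with quantile normalization were 0.0175 for Trp53bp1, −0.0416 for Palb2, −0.0296 for Exo1 and −0.0514 for Xrcc6. With median centring they were −0.015 for Topbp1, −0.0158 for Palb2 and −0.0217 for Xrcc6. With the mean of all probe sets they were 0.0211 for Atr, 0.279 for Trp53bp1, −0.0442 for Topbp1, −0.0481 for Exo1 and −0.0167 for Xrcc6. Chek1 was 0.0131 with array weights, 0.0633 with the replicate block and 0.0267 without knockout 3 and wild type 4, where Xrcc6 was −0.00167. With 1 array left out the ranges were −0.06 to 0.0633 for Chek1, −0.005 to 0.07 for Chek2, −0.08 to 0.035 for Trp53bp1, −0.0425 to 0.0625 for Topbp1, −0.118 to 0.113 for Rnf8, −0.23 to 0.005 for Brca1, −0.015 to 0.035 for Palb2, −0.0125 to 0.103 for Exo1, −0.0575 to 0.128 for Xrcc6, −0.0775 to 0.0625 for Prkdc and −0.04 to 0.0333 for Fancc. No detection calls were used, so signals near or below the array medians may not lie above background.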
